A study of Mus musculus with 14 samples.

Results

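The genes described here are 10 genes that mark the macrophages of the mouse brain: 7 microglial genes (Cx3cr1, P2ry12, Csf1r, Tmem119, Aif1, C1qa and Trem2) and 3 genes of border macrophages (Mrc1, Cd163 and Pf4). They were chosen by symbol, and all 10 were found among the 17927 genes counted. Microglia are the resident macrophages of the brain tissue. They come from yolk sac progenitors, depend on signaling through the receptor encoded by Csf1r, and in the newborn brain clear dying cells and trim synapses. Border macrophages live in the meninges, around vessels and in the choroid plexus, share much of this program with microglia, and are told apart by scavenger receptors such as those encoded by Mrc1 and Cd163.

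RNA-SEQ was performed on whole frozen brains of untreated mice at postnatal day 2 (P2). The 7 WT brains and the 7 Capn15 KO brains came from 6 litters, named A to F here, of lines made with C57BL/6J mice. The study's methods name a Capn15(lacZ-Neo) and a FLOXed Capn15 mouse and do not say which gave these brains. Capn15 is a protease of the calpain family. The column names of the counts give litter and sex: females made up 2 of the WT and 4 of the KO brains. Litter B gave 4 brains and the others 2 each, and each Capn15 KO brain has a WT brain of the same number from its litter. In litter B both WT brains were male and both Capn15 KO brains female. In litters A, C, D and E the WT and the KO brain were also of opposite sex, and only in litter F of the same. Genotype and sex therefore cannot be told apart within any single litter but F. The labels give neurons as the cell type, but neuronal, astrocyte, endothelial and macrophage genes were all counted in every library, as in whole brain.

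Libraries held between 37620954 and 70910163 counts, and single members between 64 (Aif1) and 2771 (Csf1r). Levels are given as CPM, counts per 1000000 counted reads after TMM scaling. Capn15 itself was lower in the KO brain in 6 of 7 pairs, with a log2 fold change of -0.81 (SE 0.118, FDR = 0.0747). The libraries labelled WT 7 and KO 7, both of litter F, were at 18.7 and 20.2 CPM of Capn15, between the other WT libraries and the other KO libraries. Without litter F the value for Capn15 was -0.98 (SE 0.0571, FDR = 1.58e-06). Calls between genotypes, and directions of members, that differed without litter F are therefore given beside the result. Adjusted p-values (FDR) come from edgeR's quasi-likelihood test with litter and sex in the model, adjusted over all genes by the Benjamini-Hochberg method.

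The microglial members encode mostly surface proteins. Cx3cr1, the fractalkine receptor, lies on chromosome 9 from 119901616 to 120069879, and P2ry12, a purinergic receptor that guides the processes of microglia to released nucleotides, on chromosome 3 from 59216272 to 59262871. Csf1r, the receptor for the growth factors CSF1 and IL-34, lies on chromosome 18 from 61100598 to 61132149, and Trem2, a lipid-sensing receptor, on chromosome 17 from 48346401 to 48354147. Tmem119, a membrane protein of microglia, lies on chromosome 5 from 113793729 to 113800516. Aif1, which encodes the calcium-binding protein IBA1, lies on chromosome 17 from 35170991 to 35176068, and C1qa, a chain of the complement starter C1q, on chromosome 4 from 136895917 to 136898803. Of the border macrophage members, Mrc1, the mannose receptor CD206, lies on chromosome 2 from 14229392 to 14332057. Cd163, the scavenger receptor for haemoglobin bound to haptoglobin, lies on chromosome 6 from 124304656 to 124330527, and Pf4, a chemokine that platelets carry too, on chromosome 5 from 90772435 to 90773383. All positions are on GRCm38 (GENCODE M21).

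How the counting used strand is not given in the sources used here. If it ignored strand, Csf1r would be the member most open to reads of a neighbour, since 15.1% of its exon bases overlap exons of Hmgxb3 on the other strand. Cx3cr1 shares 1.73% and P2ry12, which lies within Med12l, 0.353% of exon bases with genes on the other strand. The other 7 members share none.

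The upstream windows of 3 members are shown because these genes, a microglial receptor and 2 border macrophage genes, had the litter patterns described further on. They are the 250 bases before the RefSeq start on GRCm38.p6, given 5′ to 3′ on the gene's own strand. Capitals mark GAGGAA, a core that the macrophage factor PU.1 can bind, or its reverse complement TTCCTC.
P2ry12, chr3:59262986-59263235, minus strand: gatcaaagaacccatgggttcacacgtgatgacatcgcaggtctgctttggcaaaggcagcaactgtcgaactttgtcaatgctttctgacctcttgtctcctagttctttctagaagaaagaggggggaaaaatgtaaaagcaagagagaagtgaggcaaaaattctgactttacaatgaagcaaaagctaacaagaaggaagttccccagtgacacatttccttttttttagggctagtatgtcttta
Mrc1, chr2:14229164-14229413, plus strand: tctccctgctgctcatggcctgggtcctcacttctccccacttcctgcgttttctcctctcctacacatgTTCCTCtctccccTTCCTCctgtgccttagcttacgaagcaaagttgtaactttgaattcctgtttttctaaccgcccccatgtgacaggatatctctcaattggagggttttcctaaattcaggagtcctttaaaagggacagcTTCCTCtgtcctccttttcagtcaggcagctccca
Pf4, chr5:90772185-90772434, plus strand: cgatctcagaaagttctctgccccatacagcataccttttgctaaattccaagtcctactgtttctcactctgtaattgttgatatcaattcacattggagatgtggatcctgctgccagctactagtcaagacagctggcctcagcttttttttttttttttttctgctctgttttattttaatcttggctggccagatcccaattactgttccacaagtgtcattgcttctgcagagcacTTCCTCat
In the windows that reach from 250 bases before to 50 bases after the start, Mrc1 held 3 of these matches, Pf4 held 1 and P2ry12 held 0. Of the 10 members 7 were matched to such a window, and 4 of the 7 (Mrc1, Pf4, Aif1 and Trem2) held the letters, while Cd163 and Cx3cr1, like P2ry12, did not. Over all 32851 windows 28.3% held them. A match is a description of the letters and not a binding site.

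Levels of different genes were compared per length, as CPM per kb of merged exons. In WT brains C1qa was highest at 15.9 ± 0.827 CPM per kb (SD, n = 7), and its lowest library (14.6) lay above the highest of every other member. Csf1r followed at 7.21 ± 0.784, Pf4 at 5.999 ± 1.70, Mrc1 at 5.05 ± 0.607, Cx3cr1 at 4.72 ± 0.597 and P2ry12 at 3.93 ± 0.981 CPM per kb. In this middle group the ranges of neighbours overlapped, so that their order is not fixed beyond the spread of the libraries. Tmem119 was at 2.09 ± 0.247, Aif1 at 1.37 ± 0.256, Trem2 at 0.880 ± 0.125 and Cd163 at 0.639 ± 0.107 CPM per kb. The ranges of P2ry12 and Tmem119 just overlapped (lowest 2.30 and highest 2.40), those of Tmem119 and Aif1 did not, and those of Aif1, Trem2 and Cd163 overlapped in turn. The KO brains had the same order but for Mrc1 (4.55 ± 0.510) and Cx3cr1 (4.95 ± 0.407 CPM per kb), which changed places. With the longest transcript as the length, Aif1 came above Tmem119 (2.40 against 2.15 CPM per kb in WT).

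**Figure D1:**
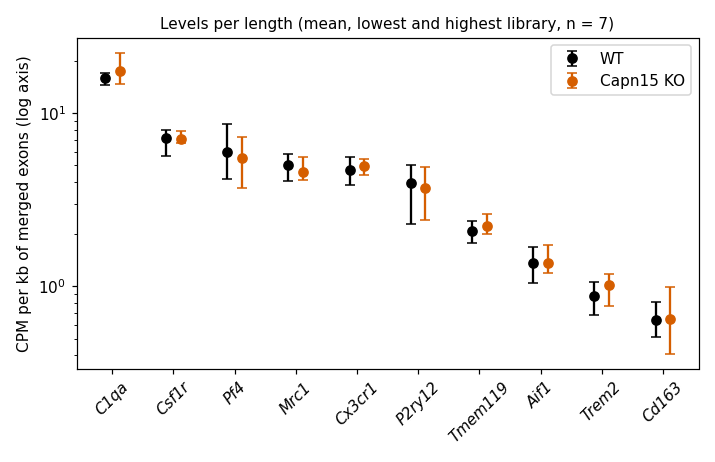
Levels of the 10 members in CPM per kb of merged exons on a log axis, as the mean (point) and the lowest and highest library (bars) of 7 WT (black) and 7 Capn15 KO brains (orange). C1qa, at a mean of 15.9 in WT, stands above the rest, and Cd163, at 0.639, is lowest, while WT and Capn15 KO ranges of each gene overlap.

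The first question was whether loss of Capn15 changed the macrophage genes. None of the 10 members was called at an FDR under 0.05 by edgeR's quasi-likelihood test, where 1 of 17927 genes (0.00558%, Ptgds) was called over the whole table. At an unadjusted p under 0.05 there were 2 of 10 members, against 5.14% of all genes. DESeq2 also called 0 of the 10, with 0 at an unadjusted p under 0.05. The WT and KO ranges of CPM overlapped for each of the 10, as they did for all but 0.00558% of genes. The microglial members had a median log2 fold change of 0.08, with 5 higher and 2 lower in KO, and the border macrophage members one of -0.10, with 1 higher and 2 lower. In a litter of 2 brains, leaving out 1 takes its littermate out of the genotype comparison too. Values without KO replicate 4 are therefore values without the pair of litter C. Capn15 was at -0.67 both without KO replicate 4 and without WT replicate 4. Without KO replicate 4 the medians of the members were 0.023 (4 higher, 3 lower) and -0.11 (0 higher, 3 lower). Without litter B they were 0.011 (4 higher, 3 lower) and -0.092 (0 higher, 3 lower). Over all genes the median was 0.00.

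Trem2 had the largest difference among the members. Trem2 was at a lowest of 3.39, a median of 4.37 and a highest of 5.28 CPM in WT, and at 3.83, 5.25 and 5.83 CPM in KO brains. Its KO libraries lay toward the upper end, but both groups spanned most of the same range. The log2 fold change of Trem2 was 0.21 (SE 0.0835, 95% interval 0.03 to 0.39, unadjusted p = 0.0251 and FDR = 0.889 from edgeR), and it was higher in KO in 6 of 7 pairs. A two-sided exact permutation test over the 3432 regroupings of 7 against 7 libraries, which ignores litter, gave Trem2 a p of 0.0880. Without KO replicate 4, and so without the pair of litter C, the edgeR value was 0.18 (unadjusted p = 0.114). Without litter B it was 0.14 (unadjusted p = 0.0917).

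C1qa ranged from 15.1 to 17.8 CPM in WT with a median of 16.7, and from 15.4 to 23.2 CPM in KO with a median of 17.6. The WT libraries were tightly grouped, whereas KO replicates 2, 3 and 4 (19.9, 19.9 and 23.2 CPM) lay above every WT library and the other KO libraries did not. Its log2 fold change was 0.14 (SE 0.0697, 95% interval -0.01 to 0.29, FDR = 0.994), higher in KO in 4 of 7 pairs. Without KO replicate 4 it was 0.02 (SE 0.0704), and without litter F it was 0.19 (unadjusted p = 0.0155, FDR = 1).

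The receptors that are most used to identify microglia differed little. Cx3cr1 ranged from 17.3 to 25.3 CPM in WT (median 21.6) and from 19.7 to 24.5 CPM in KO (median 22.8). Its log2 fold change was 0.08 (95% interval -0.02 to 0.17, not called), higher in KO in 6 of 7 pairs, and it was 0.043 without KO replicate 4, 0.043 without its WT littermate and 0.039 without litter B. P2ry12 pointed the other way and, relative to its mean, was the most spread of the microglial members within each genotype. It ranged from 5.86 to 12.8 CPM in WT (median 10.3) and from 6.16 to 12.4 CPM in KO (median 9.39), with a log2 fold change of -0.09 (95% interval -0.22 to 0.04, not called), and was lower in KO in 6 of 7 pairs. Csf1r had the smallest difference. It ranged from 32.8 to 46.5 CPM in WT and from 38.9 to 45.4 CPM in KO, with a log2 fold change of -0.01 (95% interval -0.12 to 0.10). Without litter F the value for Csf1r was 0.0041, on the other side of 0.

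Tmem119 ranged from 4.10 to 5.55 CPM in WT and from 4.67 to 6.08 CPM in KO, with a log2 fold change of 0.09 (95% interval -0.07 to 0.25), which was 0.049 without KO replicate 4 and 0.011 without litter B. Aif1, the lowest of the microglial members in CPM, ranged from 1.597 to 2.59 CPM in WT and from 1.82 to 2.66 CPM in KO. Its log2 fold change of 0.05 had a wide interval, -0.24 to 0.34, so that differences in either direction within it are not excluded. Without litter B it was -0.032.

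Of the border macrophage members, Mrc1 was the one with an unadjusted p under 0.05. Mrc1 was at a lowest of 25.9, a median of 31.4 and a highest of 37.2 CPM in WT and at 26.1, 28.2 and 35.4 CPM in KO brains. The highest KO library, replicate 4, lay above all but 2 of the WT libraries. The log2 fold change of Mrc1 was -0.10 (SE 0.0441, 95% interval -0.19 to -0.0034, unadjusted p = 0.0433 and FDR = 0.959 from edgeR), lower in KO in 5 of 7 pairs. Without litter F edgeR gave -0.08 (unadjusted p = 0.127), and with a replicate block instead of the litter term -0.10 (unadjusted p = 0.0543). With KO replicate 4 left out, and so the pair of litter C, edgeR gave -0.14 (unadjusted p = 0.0210). The exact permutation test of 7 against 7, which ignores litter, gave Mrc1 a p of 0.121.

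Pf4 ranged from 3.004 to 6.24 CPM in WT (median 4.31) and from 2.66 to 5.25 CPM in KO (median 4.37). Its log2 fold change was -0.11 (95% interval -0.26 to 0.04, not called), and it was lower in KO in 6 of 7 pairs by small steps. An exact permutation test of 7 against 7 gave Pf4 a p of 0.562. An exact test that flips the sign of each pair's difference gave a p of 0.03125, with no adjustment over the 10 members. The smallest p it can reach is 0.0156. This test counts the pairs of litter B, matched by number alone, as separate ones. It also leaves out sex, which differed within 6 of the 7 pairs. Cd163 ranged from 2.77 to 4.41 CPM in WT and from 2.22 to 5.41 CPM in KO, and its log2 fold change of 0.05 had the interval -0.26 to 0.36. The KO group held both the lowest and the highest library for Cd163, and without litter B its value was -0.059.

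**Figure D2:**
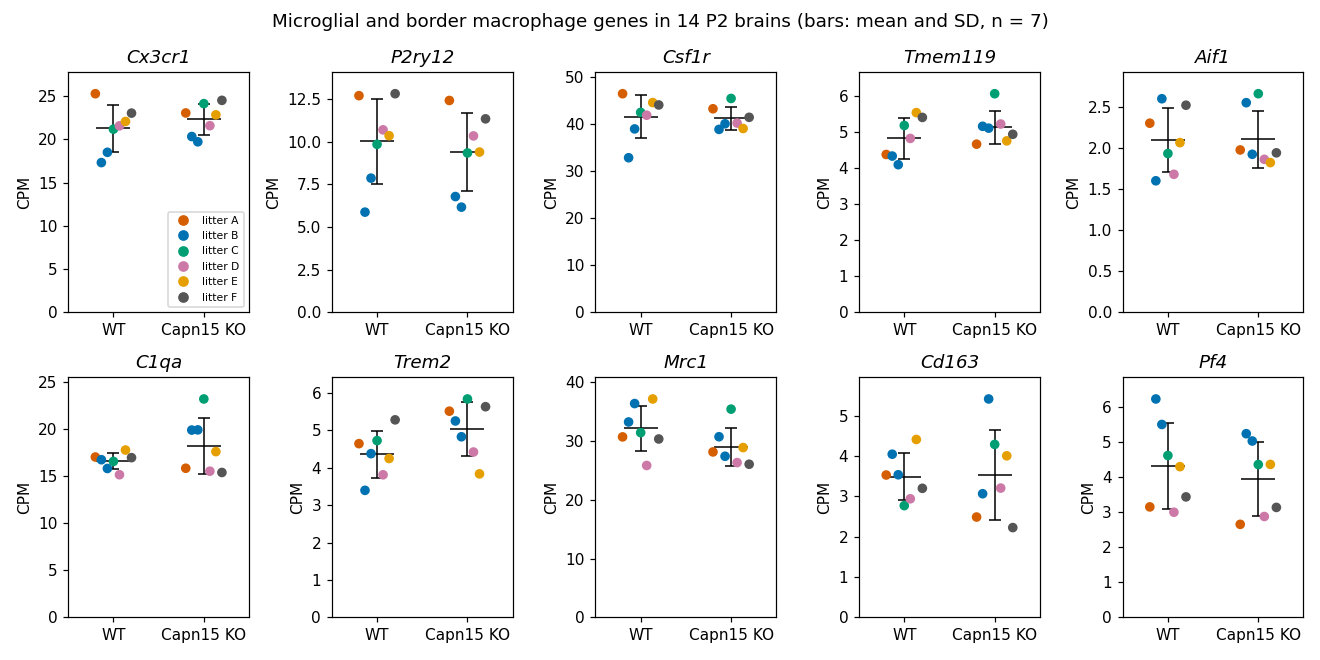
CPM of the 10 members in each of 7 WT and 7 Capn15 KO libraries, colored by litter, with the mean and SD of each group. The groups overlap in every panel, and libraries of litter B (blue) sit at the bottom for P2ry12 and at the top for Pf4 in both genotypes.

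**Figure D3:**
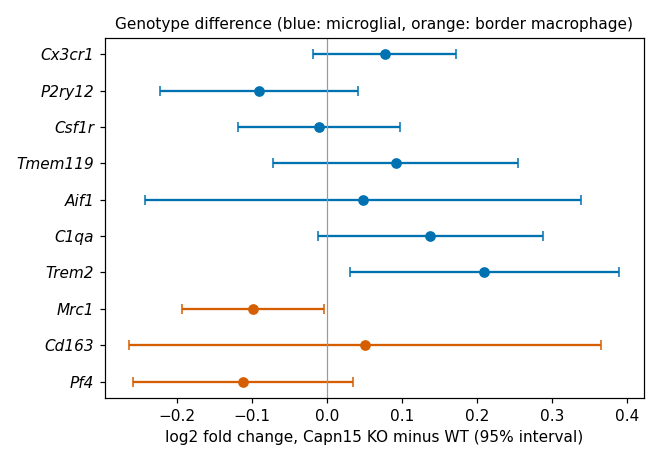
Log2 fold change of each member, Capn15 KO minus WT, with its 95% interval from edgeR's quasi-likelihood fit with litter and sex. The intervals of 8 members include 0, while those of Trem2 (0.03 to 0.39) and Mrc1 (-0.19 to -0.0034) do not, without adjustment for the number of genes.

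The litters were compared next, with genotype and sex in the model. In edgeR's quasi-likelihood test 4 of the 10 members, given with their FDR, differed among litters: Pf4 (9.18e-05), P2ry12 (0.000111), Mrc1 (0.00757) and Cx3cr1 (0.0101). This share, 4 of 10, stands beside 29.6% of all genes called among litters, so that it is near the background. The directions differed among these 4: Cx3cr1 and P2ry12 were lowest in litter B, and Pf4 was highest there. This did not divide all microglial from all border macrophage members. C1qa, a microglial member not called (FDR = 0.178), was highest in litters C, B and E, where Pf4 was also highest. In bulk tissue, fewer cells of a type and less RNA per cell cannot be told apart.

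P2ry12 had a mean of 6.66 CPM in litter B (4 brains, 5.86 to 7.86), 9.59 in litter C, 9.87 in litter E, 10.5 in litter D, 12.1 in litter F and 12.6 in litter A. Each of the 4 litter B libraries, WT and KO alike, lay below every other library, which held for 9.77% of all genes. The mean of the highest litter was 1.88 times that of the lowest, where the median gene with a mean of at least 1 CPM had a ratio of 1.18. Cx3cr1 had the same low end, with 17.3 to 20.3 CPM in litter B and 21.2 to 25.3 CPM in the other 10 libraries.

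Pf4 was arranged the other way round. Its 4 litter B libraries were at 5.04 to 6.24 CPM and lay above every other library, which held for 7.45% of all genes. Litters C and E followed with means of 4.49 and 4.34 CPM, and litters F, D and A were at 3.29, 2.94 and 2.91 CPM. The highest litter was 1.89 times the lowest for Pf4. Mrc1 was highest in litter C (33.4 CPM) and litter E (33.0 CPM), then in litter B (31.96 CPM), and lowest in litter D (26.1 CPM), so that its low litters, D, F and A, were also the low litters of Pf4. The other 6 members were not called among litters, with FDR from 0.104 (Trem2) to 0.735 (Aif1).

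**Figure D4:**
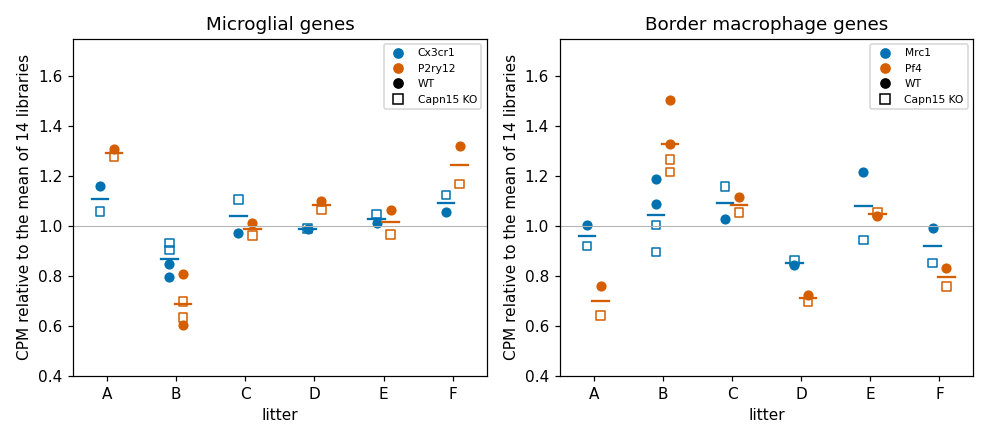
CPM of 4 members in each library relative to the mean of the 14 libraries, by litter, with WT as filled circles, Capn15 KO as open squares and the litter mean as a line. In litter B P2ry12 and Cx3cr1 are at their lowest and Pf4 is at its highest in both genotypes, and in litters A and F P2ry12 is high while Pf4 is low.

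Without litter B, a choice made after its levels were seen, 0 of 10 members were called among litters by edgeR's quasi-likelihood test, and 6 had an unadjusted p under 0.05, as 5 of 10 had with it (41% of all genes). The background also fell, to 196 genes (1.09%), and 16.7% of genes then had an unadjusted p under 0.05. The FDR was then 0.0531 for Pf4, 0.0746 for Mrc1, 0.0802 for P2ry12 and 0.619 for Cx3cr1. Without sex in the model Mrc1 was not called (FDR = 0.0754). With edgeR's likelihood ratio test 5 of 10 members, Trem2 added, and 37.4% of all genes were called. Litters are sets of 2 to 4 brains, and whatever else differed between litters, such as the hour of birth or the handling of the brains, cannot be told apart from litter here.

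Related genes were read for the same litter pattern. Of 15 other microglial genes measured, 7 were called among litters, and 5 of the 7 had their lowest litter mean in litter B, among them P2ry13, Siglech, Olfml3 and Fcrls. P2ry13, a purinergic receptor gene beside P2ry12, was at 2.72 to 2.87 CPM in litter B and at 3.20 to 4.32 CPM in all other libraries (FDR = 0.00822). The 2 others, Slco2b1 and Tgfbr1, were highest in litter B. Of 8 other border macrophage genes 2 were called, F13a1 (FDR = 4.49e-05) and Lyve1 (FDR = 0.00273), and both were highest in litter B. F13a1, which encodes a subunit of coagulation factor XIII, had means of 21.8 CPM in litter B, 21.1 in litter E and 18.6 in litter C, and of 12.3 to 13.8 CPM in litters F, D and A, the split seen in Pf4. Lyve1, a hyaluronan receptor, had 9.17 CPM in litter B, 8.55 in litter C and 8.54 in litter E, and 6.33 to 6.46 CPM in the others. The C1q chain genes C1qb (FDR = 0.01997) and C1qc (FDR = 0.00522), listed here as complement genes, were also called. Their highest means were in litters B, C and E too, and their lowest in litter D. Of all 5301 genes called among litters, 49.7% were lowest and 40.7% highest in litter B.

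Markers of other cells moved with litter too. The summed level of 6 astrocyte and oligodendrocyte lineage genes was 819 to 920 CPM in litter B and 1002 to 1212 CPM in the other libraries, and 6 of the 6 genes were called among litters. The summed level of 6 red blood cell genes was 198 to 325 CPM in litter B, 31.1 to 35.8 CPM in litter D and 79.5 to 201 CPM in the other 4 litters, and 6 of 6 were called. Pf4 is also a platelet gene. Of 7 platelet genes 2 were measured, Itga2b and Gp1bb, and their sum was lowest in litter B (mean 3.13 CPM, against 3.83 to 4.54 CPM in the other litters), where Pf4 was highest. The low sum was that of Itga2b alone, with means of 1.71 CPM in litter B and 2.41 to 2.90 CPM in the others. Gp1bb was at 1.42 CPM in litter B, lowest in litter D (1.38 CPM) and not called among litters (FDR = 0.861). The other 5 platelet genes were not analysed here. The part of the other cell types in the litter pattern of the members was not tested.

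To place both groups on one scale, the mean log2 CPM of the 3 border macrophage members was subtracted from that of the 7 microglial members in each library. This difference was 0.27 ± 0.35 in WT and 0.42 ± 0.31 in KO brains (SD, n = 7 each). Its ranges, -0.33 to 0.62 and -0.02 to 0.80, overlapped, and it was higher in KO in 6 of 7 pairs. Some of these steps were small, with 0.360 in WT and 0.362 in KO in litter C, 0.543 and 0.570 in litter D, and 0.141 and 0.181 in litter E. The pairs of litter B are matched by number alone. By litter the mean of this difference was -0.02 in litter B, 0.16 in litter E, 0.36 in litter C, 0.56 in litter D, 0.67 in litter A and 0.71 in litter F. Means of few brains lie apart through their spread alone, so that this range over litters was not measured against genotype. The difference between genotypes was 0.16. That difference was 0.059 without WT replicate 2, 0.095 without KO replicate 1 and 0.095 without KO replicate 7, 0.23 at most with another single library left out, and 0.028 with the median of the members in place of the mean. Within the females it was -0.14 and within the males 0.39. The WT and KO females shared no litter, however, and the males only litter F, so that genotype and litter cannot be told apart in these values.

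The sexes were compared with genotype and litter in the model. None of the 10 members was called by edgeR's quasi-likelihood test at an FDR under 0.05, against 12 genes (0.0669%) over the whole table, and 1 of 10 had an unadjusted p under 0.05, against 5.04% of all genes. That member was Mrc1, at 31.97 ± 4.33 CPM in 8 male and 28.8 ± 2.09 CPM in 6 female brains (SD). The log2 difference, male minus female, was 0.17 (SE 0.0476, unadjusted p = 0.00318, FDR = 0.771). Male brains ranged from 26.1 to 37.2 CPM and female brains from 25.9 to 31.4 CPM, so that the ranges overlapped. In the pairs of opposite sex from one litter, however, the male library was higher in 6 of 6 pairs, which held for 1.1% of all genes. In 4 of these pairs the male brain was WT and in 2 it was KO. Aif1 and Cd163 were higher in the male in 5 of 6 pairs, with log2 differences of 0.15 (SE 0.146) and 0.20 (SE 0.156). The other 7 members were higher in the male in 3 or 4 of 6 pairs.

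The wider program of these cells was read from lists of related genes, in which edgeR's likelihood ratio test and DESeq2 also called 0 genes unless named below. Of 15 other microglial genes 0 were called between genotypes, and 3 were higher and 1 lower at an unadjusted p under 0.05, where 2.88% of all genes were higher and 2.26% lower at that limit. Cd33, a sialic acid receptor, had 0.29 (SE 0.122, unadjusted p = 0.0345), Slco2b1 had 0.09 (SE 0.0392, unadjusted p = 0.0475) and Olfml3 had -0.12 (SE 0.0478, unadjusted p = 0.0213), each a log2 fold change of KO minus WT from edgeR with an FDR of 0.869 or more. Without litter B the 3 higher genes came to 0. Of 8 other border macrophage genes 0 were called and 1 was lower at an unadjusted p under 0.05: Clec10a, a lectin of border macrophages, was at 0.740 ± 0.226 CPM in WT and 0.509 ± 0.0910 CPM in KO (SD, n = 7 each), with a log2 fold change of -0.57 (SE 0.196, FDR = 0.780 from edgeR). Without KO replicate 4 it was -0.46 (unadjusted p = 0.0772), so that the count came to 0. Clec10a stayed under that limit in edgeR without litter B (-0.72, unadjusted p = 0.00609) and without litter F (-0.55, unadjusted p = 0.0255).

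Of 14 general myeloid genes 0 were called. Their log2 fold changes were positive for 13 of 14, with a median of 0.13, beside the median of 0.00 over all genes, and 3 (Ctss, Laptm5 and Lyz2) had an unadjusted p under 0.05. Ctss, which encodes the lysosomal protease cathepsin S, had 0.20 (SE 0.0799) and Laptm5, a lysosomal membrane protein of blood cells, 0.17 (SE 0.0732). Without KO replicate 4 the median was 0.07, 10 of 14 were positive and Ctss was at 0.07, and without litter B none of the 3 had an unadjusted p under 0.05. Of the 8 transcription factors 0 were called and 7 were positive, with 1, Mef2c (0.07, SE 0.0291), at an unadjusted p under 0.05, which came to 0 without KO replicate 4 and without litter B. Mef2c is also a neuronal gene, and at a mean of 657 CPM it was far above Spi1, which encodes PU.1, at 1.84 CPM. Spi1 had a log2 fold change of 0.11 (SE 0.119). Of 8 ligands of macrophage receptors 0 were called and 0 had an unadjusted p under 0.05. The ligands of the CSF1R receptor, Csf1 (0.00, SE 0.0463) and Il34 (-0.04, SE 0.0810), and the ligand of CX3CR1, Cx3cl1 (0.02, SE 0.0442), were among them.

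Among 8 complement genes 0 were called, and 2 were higher and 1 lower at an unadjusted p under 0.05. C1qb and C1qc encode the chains that assemble with that of C1qa, and the 3 genes lie side by side. C1qb was at 15.8 ± 1.23 CPM in WT and 18.4 ± 2.92 CPM in KO (SD, n = 7 each), with a log2 fold change of 0.22 (SE 0.0574, unadjusted p = 0.00201, FDR = 0.473 from edgeR), higher in KO in 6 of 7 pairs. C1qc was at 18.6 ± 1.77 and 21.1 ± 3.72 CPM, with 0.18 (SE 0.0548, unadjusted p = 0.00535, FDR = 0.641 from edgeR), higher in 7 of 7 pairs. The exact permutation test of 7 against 7, which ignores litter, gave C1qb a p of 0.0647 and C1qc a p of 0.150. The exact sign-flip test gave 0.03125 and 0.0156, the latter the smallest it can reach. As for Pf4, it counts the pairs of litter B as separate ones and leaves out sex. Both genes were named for their small unadjusted p. The exact tests reuse the same values without adjustment, so they are no independent support. As for C1qa, KO replicates 2, 3 and 4 lay above every WT library for both genes. KO replicates 2 and 3 are the females of litter B and replicate 4 is a male of litter C. Without KO replicate 4 the values were 0.14 for C1qb and 0.14 for C1qc (unadjusted p = 0.0460 and 0.0637), and without litter B 0.15 and 0.11 (unadjusted p = 0.0229 and 0.0281).

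The same 3 KO libraries were high for Gpnmb, a gene of phagocytic microglia of the developing white matter. Gpnmb was at 5.63, 10.5 and 19.7 CPM in KO replicates 2, 3 and 4 and at 1.33 to 2.08 CPM in the other 4 KO libraries, beside 1.07 to 2.69 CPM in WT. The 3 high libraries stood above all WT libraries and the other 4 lay within the WT range. Its log2 fold change was 1.43 (SE 0.360, unadjusted p = 0.00144, FDR = 0.466 from edgeR), higher in KO in 5 of 7 pairs. The exact permutation test of 7 against 7 gave Gpnmb a p of 0.153 and the exact sign-flip test a p of 0.109. Without KO replicate 4 it was 0.51 (unadjusted p = 0.199), and without litter B 0.93 (unadjusted p = 0.0119). Spp1, which encodes osteopontin and was named after its values were seen, was at 53.4 CPM in KO replicate 4 and at 10.1 to 23.7 CPM in the other 13 libraries. Its log2 fold change was 0.36 (SE 0.228) and -0.05 without that library, and so without its pair. Of the 12 genes of this phagocytic list 0 were called, and 2 (Gpnmb and Lgals3) were higher at an unadjusted p under 0.05, which came to 0 without KO replicate 4, where 4.43% of all genes were higher at that limit.

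**Figure D5:**
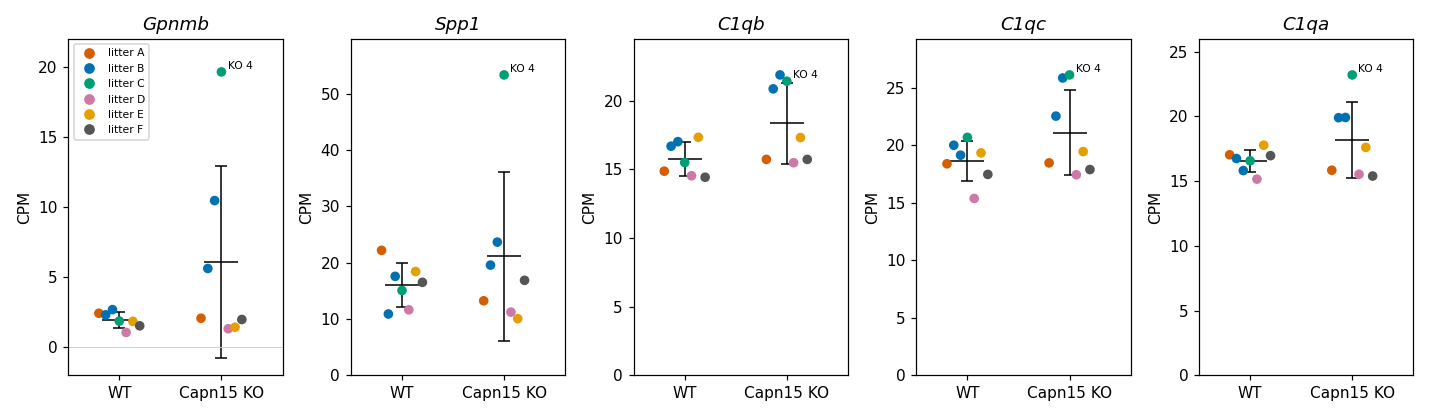
CPM of Gpnmb, Spp1 and the 3 C1q chain genes in 7 WT and 7 Capn15 KO libraries, colored by litter, with the mean and SD. KO replicate 4 (labelled) is at 19.7 for Gpnmb, 53.4 for Spp1 and 23.2 for C1qa, and KO replicates 2 and 3 of litter B (blue) are, with it, the 3 highest KO libraries in each panel.

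Few markers of other blood cells were measured. Of 5 monocyte genes 0 were measured, and of 8 neutrophil, 7 lymphocyte and 5 mast cell genes 2, 1 and 4 were. The neutrophil genes S100a8 and S100a9 summed to between 0.471 and 1.21 CPM, and the lymphocyte gene Cd79b was at 0.299 to 0.836 CPM. The 3 measured genes of MHC class II, which adult border macrophages carry, summed to 2.02 to 4.08 CPM, and 0 were called between genotypes. The other genes of these lists were not analysed here. None of the 6 red blood cell genes was called by genotype. Genes of the tissues where border macrophages live were read too. Of 6 choroid plexus genes 5 were lower in KO at an unadjusted p under 0.05 and 0 were called, with Ttr at -0.32 (FDR = 0.0942), and of 8 leptomeningeal fibroblast genes 4 were lower and 0 were called, with Fmod at -0.55 (FDR = 0.176). In these lists the likelihood ratio test called 2 genes each (Kcne2 and Ttr, Fmod and Ogn) and DESeq2 1 each (Ttr, Ogn), all lower. Without litter F the quasi-likelihood test called 1 gene in each, Ttr (-0.27, FDR = 0.0486) and Fmod (-0.68, FDR = 0.00506). Of 6 endothelial genes 0 were called and 4 were positive, with Cldn5, a tight junction gene, higher at an unadjusted p under 0.05 (0.10, SE 0.0435). The summed choroid plexus level was 744 to 980 CPM in WT and 609 to 847 CPM in KO. The part of these tissues in the Mrc1 and Pf4 values was not tested.

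Genes most like the members were sought by the correlation of what was left of log2 CPM after genotype, litter and sex, over 15217 genes outside the members with a mean of at least 1 CPM. The 14 libraries leave 6 residual degrees of freedom, and 98 genes had a Pearson correlation over 0.9 with the microglial mean and 110 with the border macrophage mean, so that the values are a description. Nearest to the mean of the microglial members were Stab1 (0.994), Tfpi (0.979), Rras2 (0.971), Tom1l1 (0.969) and Ppp2r2c (0.969). Stab1 encodes stabilin, a scavenger receptor of border macrophages and endothelium, and was on the list of border macrophage genes. Nearest to the mean of the border macrophage members were Ccdc47 (0.989), Ak3 (0.987), Itih5 (0.982), Lias (0.9753) and 2510009E07Rik (0.970). That mean followed Cd163 (0.967) far more closely than Pf4 (0.129) or Mrc1 (-0.10), so that these genes are mostly those like Cd163. Mrc1 followed the microglial mean (0.652) more closely than its own. C1qa followed the border macrophage mean (0.786) more closely than its own. Within the microglial group Csf1r (0.917), Aif1 (0.913) and Trem2 (0.903) followed their mean most closely. Tmem119 (0.668), C1qa (0.671), P2ry12 (0.681) and Cx3cr1 (0.684) did less so. Each member is part of its own group's mean, which raises its value, most for members with a wide spread. These values are therefore no measure of how well a group holds together.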

How the data were processed

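Libraries of ribosome-depleted RNA were made from 14 P2 brains, with a stranded TruSeq kit per the labels and a ScriptSeq kit per the study's methods. The authors trimmed the reads with Trimmomatic, aligned them with STAR to GRCm38 and deposited raw counts per gene, made with HTSeq-count per their methods and featureCounts per the submitters' processing notes. The rule that left 17927 genes is not given in the sources used here.

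Genes with at least 1 count were tested in edgeR 4.0.16 (R 4.3.3): TMM factors, quasi-likelihood test, genotype, litter and sex as terms. DESeq2 1.42.0 and limma 3.58.1 were alternatives. The fit was tested on simulated data. Log2 CPM used a prior count of 2, intervals are 95% from the fit, and exact tests are two-sided. Same-numbered brains share a litter in 7 of 7 pairs by the column names, and correlated at 0.123 on average (-0.47 to 0.44) after subtraction of group means. No library was a copy of another (lowest chi-square per gene 4.66).

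The members, lists and tests were chosen with earlier results of these data known. Named genes are the members, Capn15, genes with an FDR under 0.05, up to 3 per list with the smallest unadjusted p (or the highest level), and 5 per group by likeness. Spp1, Spi1, Csf1, Il34, the genes named for litter or for a call by another test, and the haemoglobin genes were added after their values were seen. The values of 2 listed genes, which stay in every fit and count, are not reported here.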

Additional observations from a re-analysis of the deposited data

Results flagged for a closer look

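Each group of 7 libraries was searched for a library whose gap to its nearest neighbour, divided by the range of the group, was above 0.568. Of 108 groups 4 held one, where 5.4 are given by chance, and all 4 were Capn15 KO groups. Among the members, Tmem119 was highest in KO replicate 4 with a log2 CPM of 2.61 beside 2.40 in the next KO library (gap over range 0.569). The same library was highest for Lyz2, the lysozyme of macrophages, at 3.804 with the nearest at 3.23 (0.602). KO replicate 5, of litter D, was lowest for the haemoglobin genes Hbb-bs, at 4.43 with the nearest at 6.09 (0.615), and Hba-a1, at 2.66 with the nearest at 4.40 (0.626). Its WT littermate was the lowest WT library for the sum of the red blood cell genes, at 31.1 CPM beside 35.8 CPM. No cause was tested.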

How the results depend on the processing

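The members called between genotypes stayed at 0 under all 25 alternatives, and for sex at 0 under all 18. Over all genes, the genotype test called 1 gene, and 0 with a replicate block for litter, 2 without sex, 34 with edgeR's likelihood ratio test, 22 with DESeq2, 7 without litter F, 0 without litter B and 0 to 7 with single libraries left out. The block, from pairs that share a litter, changed no call among the members. The likelihood ratio test for sex called 36 genes. Among litters, 4 members were called, 0 without litter B (196 of all genes), 5 with the likelihood ratio test, which added Trem2, and 4 to 5 with single libraries left out. With both brains of a litter needed for a pair, leaving out 1 of 2 takes the other out of the genotype comparison.

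Genotype directions turned, none of them called, for Csf1r (0.0041 without litter F, -0.048 to 0.015 with single libraries left out), Aif1 (-0.032 without litter B, -0.057 to 0.13) and Cd163 (-0.011 without sex, -0.059 without litter B, -0.098 to 0.15). The cause was not tested. The longest transcript as length is by construction never longer than merged exons. It moved WT levels to 8.85 (Csf1r), 7.36 (Pf4), 5.99 (Mrc1), 4.27 (P2ry12), 2.40 (Aif1) and 0.785 (Cd163) CPM per kb. C1qa, of the same length either way, stayed at 15.9 CPM per kb, and Cx3cr1, Tmem119 and Trem2 moved less. The paired sign-flip test gave Pf4 (mean log2 difference -0.12) a p of 0.03125 (exact). Aif1 (64 to 144 counts per library) and Cd163 (85 to 284) had the widest intervals among the members, too wide to show small differences. Why they were wide was not tested.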
